A study of Mus musculus with 24 samples.

Results

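The mouse mitochondrial genome encodes 37 annotated genes, 13 for proteins, 2 for ribosomal RNAs and 22 for transfer RNAs, and their RNA was followed across 3 fibroblast lines with and without the muscle transcription factor MyoD. The members were every gene on the mitochondrial chromosome (chrM, mm10 build) whose annotated name begins with mt-, and they were taken from the annotation and not for their values. They are 37 of 39066 genes with a value above 0 in at least 1 library and 37 of the 19983 genes tested. All 37 were listed in all 24 libraries and all 37 passed the filter on low values. No transcript without an annotated gene was assembled on chrM.

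The cells were C3H 10T1/2, a fibroblast line from embryos of C3H mice that MyoD can turn towards muscle. RNA was measured in LncMyoD knockout clone 2, LncMyoD knockout clone 1 and the wild type parent, where LncMyoD is a long noncoding RNA. Each line was given MyoD adenovirus with LncMyoD plasmid, MyoD adenovirus alone, LncMyoD plasmid alone or neither, with 2 libraries in each of the 12 groups and 8 in each line. Cells grew in 10% fetal bovine serum, which was changed to 2% horse serum after transdifferentiation, so the medium may have changed along with MyoD. An empty virus or an empty plasmid is not among the labelled groups. Each knockout line is 1 clone, so a difference between a clone and wild type is no test of the genotype, and line and any difference in handling cannot be told apart. The labels do not say whether replicates are separate cultures, so the p-values measure the spread between these libraries, which may be technical.

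Mitochondria keep a small circular genome that is read from both strands as long RNAs, and the tRNAs that lie between most of the other genes mark where these RNAs are cut. The proteins it encodes are core subunits of respiratory complexes I, III and IV and of the ATP synthase (complex V), while the ribosomal and transfer RNAs serve the organelle's own ribosome. The polymerase, the cutting enzymes, the poly(A) polymerase and the helpers of RNA stability come from nuclear genes. Muscle is rich in mitochondria, and muscle differentiation is known to be accompanied by mitochondrial growth.

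Levels are TPM (transcript abundance per length, as a share of its library) or non-ribosomal TPM, which leaves out the transcripts at the cytoplasmic ribosomal repeat copy on chromosome 17 and rescales each library to the usual TPM total. The second scale was needed because the lowest, median and highest percent of TPM at that repeat was 2.68, 5.27 and 7.90% in clone 2, 36.8, 63.8 and 70% in clone 1 and 55.6, 61.8 and 69.2% in wild type, so the 8 libraries of clone 2 stood apart from the other 16 before any gene was compared. The percent of TPM from nuclear protein-coding genes was 52.9, 66.5 and 72% in clone 2, 8.27, 9.86 and 12.7% in clone 1 and 11, 14.6 and 15.1% in wild type. From the deposited coverage, aligned sequence per library came to 3.49 to 5.04 gigabases in clone 2, 2.43 to 5.10 in clone 1 and 4.40 to 5.93 in wild type. Mean coverage per base of the protein genes was 908 to 61021 in clone 2, 26.2 to 2765 in clone 1 and 67.5 to 5215 in wild type, and that of the tRNA genes was 4.37 to 20419.5 in clone 2, 2.49 to 646 in clone 1 and 15.2 to 837 in wild type. Myod1 was 929.6 to 1222 TPM in clone 2, 1665 to 3641 in clone 1 and 3301 to 3735 in wild type libraries given the virus, and at most 3.76 TPM in those without it. The 9 fibroblast markers were above 0 in each line, with summed TPM of 5383 to 16217 in clone 2, 282 to 363 in clone 1 and 455 to 719.6 in wild type. These sums also differed by line. The other marker lists held low sums. Of 4 macrophage markers 3 were above 0 in clone 2, 2 in clone 1 and 3 in wild type, with Adgre1 at 0 in all 24 libraries, and their summed TPM was 0.264 to 7.22 in clone 2, 0 to 10.4 in clone 1 and 0 to 3.33 in wild type. Of 4 epithelial markers 3 were above 0 in clone 2, 2 in clone 1 and 1 in wild type, with Epcam at 0 in all 24 libraries, and their summed TPM was 0 to 4.63 in clone 2, 0 to 2.60 in clone 1 and 0 to 0.805 in wild type. Of 2 endothelial markers 1 was above 0 in each line and Cdh5 was at 0 throughout, with a summed TPM of 0 to 1.89 in clone 2, 0 to 1.77 in clone 1 and 0 to 0.0724 in wild type. The summed TPM of the 3 adipocyte markers was 11.4 to 32.6 in clone 2, 0.0452 to 4.77 in clone 1 and 0 to 1.46 in wild type, with no overlap between clone 2 and the other lines, while Plin1 was at 0 in clone 2 and wild type and Adipoq in clone 1 and wild type. The part of these in the differences between lines was not tested. The summed 7 muscle markers with MyoD and without it were 353 to 728 and 2.50 to 7.13 TPM in clone 2, 21.8 to 46.6 and 0 to 4.60 in clone 1, and 70.4 to 93.6 and 1.02 to 2.83 in wild type. All 7 were above 0 in clone 2 and 6 in clone 1 and in wild type, where Ckm was at 0 in all libraries.

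Some members share sequence with other genes, which limits what their values mean, and a few sequences from the GENCODE vM21 transcripts on mm10 show how. A copy of part of the mitochondrial genome lies in the nuclear genome at chr1:24611535-24616197 on the minus strand, where 7 annotated pseudogenes match mt-Nd4, mt-Nd4l, mt-Nd3, mt-Co3, mt-Atp6, mt-Co2 and mt-Co1. Over the aligned stretches 5 of the 7 were identical to the mitochondrial gene. The copy of mt-Nd3 (chrM:9459-9806, plus strand), Gm28438 (chr1:24612775-24613119, minus strand), differed at 1 of 345 aligned bases, T3C counted from the first base of mt-Nd3, and the first 200 bases of both (chrM:9459-9658 and chr1:24612920-24613119) are printed with that base in capitals, because it was the 1 base of the aligned stretch by which their reads could be told apart.
mt-Nd3: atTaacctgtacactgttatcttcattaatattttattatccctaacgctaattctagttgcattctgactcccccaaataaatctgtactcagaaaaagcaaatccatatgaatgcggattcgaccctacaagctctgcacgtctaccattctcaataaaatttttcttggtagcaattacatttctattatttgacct
Gm28438: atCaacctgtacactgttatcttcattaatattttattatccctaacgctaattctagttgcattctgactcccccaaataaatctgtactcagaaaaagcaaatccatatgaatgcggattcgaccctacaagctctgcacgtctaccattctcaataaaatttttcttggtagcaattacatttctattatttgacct
The capitals in mt-Atp8 (chrM:7766-7969, plus strand) mark the 43 bases it shares with the start of mt-Atp6, which follows it on the same strand, so reads there belong to either gene.
mt-Atp8: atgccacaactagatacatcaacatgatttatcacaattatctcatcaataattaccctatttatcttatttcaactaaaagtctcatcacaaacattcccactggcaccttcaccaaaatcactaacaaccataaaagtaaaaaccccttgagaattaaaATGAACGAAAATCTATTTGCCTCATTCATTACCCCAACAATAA
The serine tRNA mt-Ts1 (chrM:6870-6938) and the proline tRNA mt-Tp (chrM:15356-15422) lie on the minus strand. mt-Ts1 lies opposite the end of mt-Co1, and the capitals mark the 3 bases that overlap it; both tRNAs are shown because their levels moved apart from those of most other tRNAs.
mt-Ts1: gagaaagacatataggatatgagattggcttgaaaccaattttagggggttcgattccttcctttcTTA
mt-Tp: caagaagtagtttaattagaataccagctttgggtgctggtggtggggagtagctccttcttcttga
The library kit does not mark strand. Reads of the 9 genes on the minus strand (mt-Nd6 and 8 tRNAs) could therefore not be told apart from RNA of the other strand at the same place.

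The order of the 3 lines by mitochondrial share depended on what the sum was measured against, and clone 1 lay below wild type by median in each case. The lowest, median and highest mitochondrial share of non-ribosomal TPM was 8.32, 10.3 and 15.2% in clone 2, 3.48, 4.14 and 4.60% in clone 1 and 6.64, 7.84 and 8.66% in wild type, so the ranges of clone 2 and wild type overlapped and clone 1 lay below both. Against the whole of TPM the same shares were 7.91, 9.78 and 14% in clone 2, 1.32, 1.51 and 2.20% in clone 1 and 2.06, 2.85 and 3.84% in wild type. Set against nuclear protein-coding TPM alone, the mitochondrial protein genes amounted to 8.86, 11.7 and 21% in clone 2, 2.54, 3.42 and 4.42% in clone 1 and 3.02, 4.01 and 4.49% in wild type. As a part of mitochondrial plus nuclear protein-coding TPM, all 37 genes held 9.90, 12.5 and 20.9% in clone 2, 11.3, 13.3 and 15.2% in clone 1 and 15.4, 16.8 and 20.2% in wild type, where clone 2 overlapped both other lines and clone 1 lay below wild type. Against that last sum clone 2 was the lowest line by median and clone 1 by mean, and against the other sums clone 1 was the lowest by both.

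The makeup of the mitochondrial share differed between clone 2 and the other lines: protein genes made up most of it in clone 2 and rRNA genes most of it in clone 1 and wild type. Of non-ribosomal TPM, the protein genes held 6.70, 8.41 and 12% in clone 2, 0.784, 0.912 and 1.05% in clone 1 and 1.24, 1.41 and 1.74% in wild type (lowest, median and highest). The 2 rRNA genes held 0.779, 1.09 and 1.92% in clone 2, 2.26, 2.85 and 3.53% in clone 1 and 4.97, 5.80 and 6.62% in wild type, with clone 2 now the lowest line. The 22 tRNA genes held 0.623, 0.774 and 1.19% in clone 2, 0.143, 0.329 and 0.569% in clone 1 and 0.312, 0.406 and 0.578% in wild type, and without mt-Ts1 0.175, 0.267 and 0.360% in clone 2, 0.131, 0.308 and 0.540% in clone 1 and 0.299, 0.387 and 0.552% in wild type. Within the mitochondrial sum, which no outside denominator touches, protein genes made up 79.5, 80.4 and 83.4% in clone 2, 17.6, 23 and 25.6% in clone 1 and 16.5, 19.2 and 21.5% in wild type. The rRNA genes made up 8.48, 11.7 and 12.7% in clone 2, 60, 68.9 and 79.2% in clone 1 and 71.3, 75.5 and 79.5% in wild type. No library of clone 2 overlapped a library of the other lines in either. These sums are descriptions with no test. In bulk RNA, fewer cells that express a gene and less of its RNA per cell cannot be told apart.

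**Figure D1:**
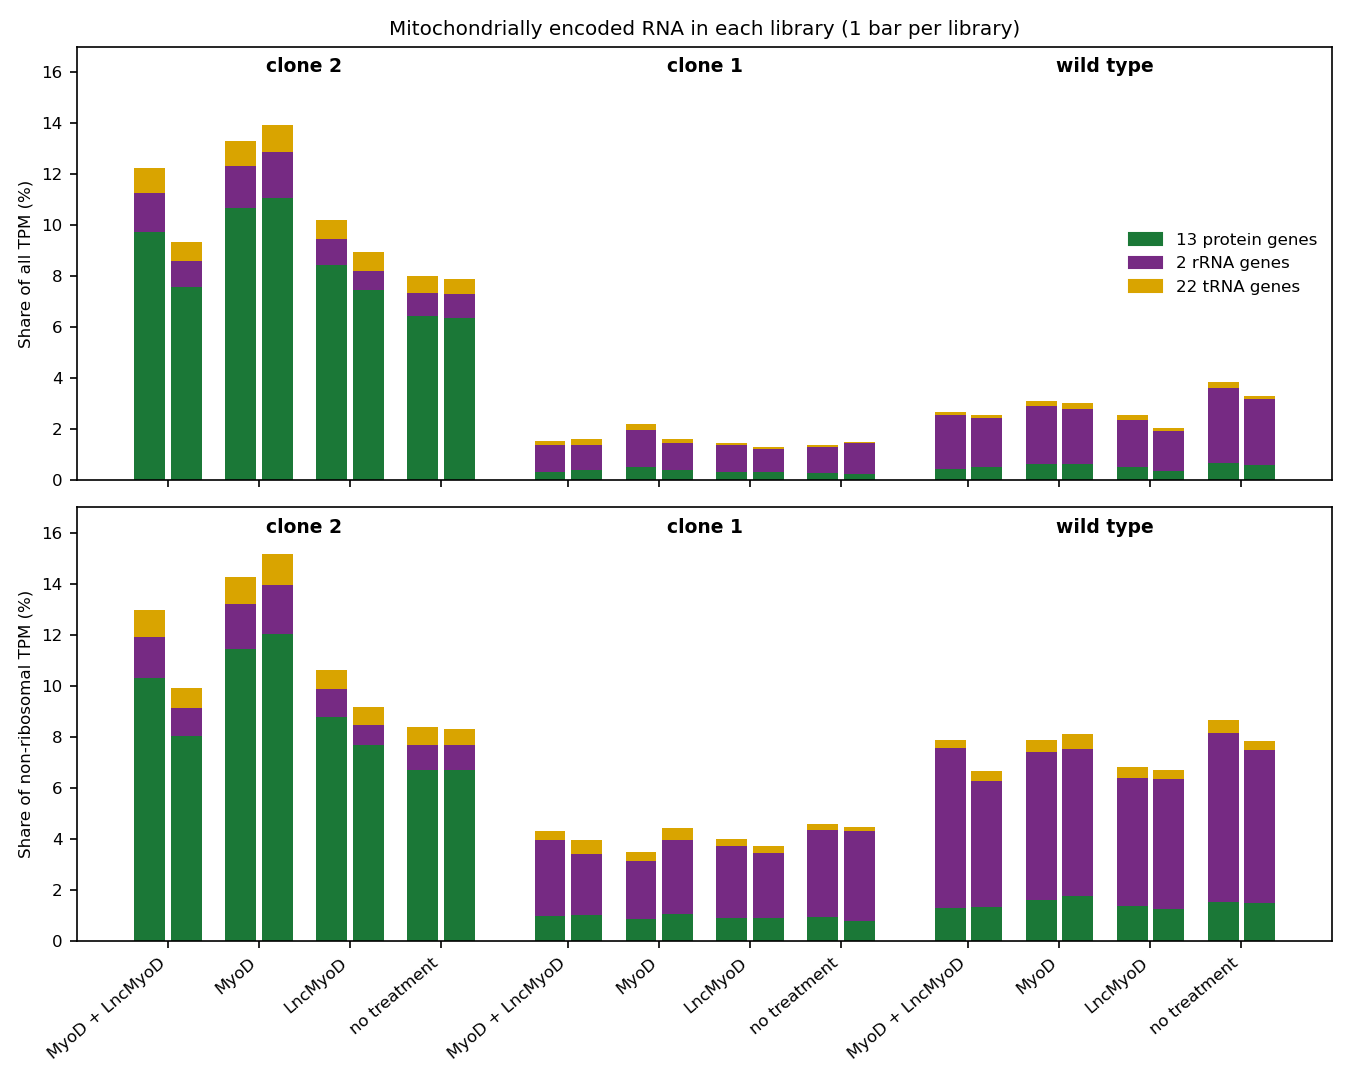
Share of all TPM (upper panel) and of non-ribosomal TPM (lower panel), in percent, of the 13 protein, 2 rRNA and 22 tRNA genes. Each library is 1 stacked bar, grouped by line and treatment. On non-ribosomal TPM, protein genes stand highest in clone 2 and rRNA genes highest in wild type.

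Library by library, clone 2 held a mitochondrial share of non-ribosomal TPM of 14.3% and 15.2% with MyoD alone and 13% and 9.92% with MyoD and the plasmid, against 8.37% and 8.32% untreated and 10.6% and 9.19% with the plasmid alone. The ranges with and without MyoD overlapped through the second library given both agents. Clone 1 held 3.48% and 4.43% with MyoD alone and 4.30% and 3.95% with MyoD and the plasmid, against 4.60% and 4.46% untreated and 3.98% and 3.72% with the plasmid alone. Wild type held 7.88% and 8.09% with MyoD alone and 7.87% and 6.64% with MyoD and the plasmid, against 8.66% and 7.82% untreated and 6.82% and 6.69% with the plasmid alone. In clone 1 and in wild type the ranges with and without MyoD overlapped. Clone 1 with MyoD alone, replicate 1, was also the library of clone 1 with the least ribosomal repeat, 36.8% of TPM against 63.1% in replicate 2, and its mitochondrial share of all TPM was 2.20%.

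In clone 2, 12 members were called above wild type and 5 below it under each of 7 scalings, and 10 of the 12 were protein genes. Of the genes tested under all 7 scalings 34.4% were higher and 5.12% lower in that way, so the count of higher members lay close to the background. The lines were compared over their 8 libraries each. On TPM 25 of 37 mitochondrial genes were called higher and 5 lower at a limma adjusted p under 0.05, but 67.7% of all tested genes were higher and 4.5% lower, so the count of higher genes lay close to the background. The median log2 change was 1.23 for the members and 1.26 for all genes. On non-ribosomal TPM 15 were higher and 16 lower, against 40.4% and 10.2% of all genes, with medians of -0.20 and 0.39. By median of ratios 12 were higher and 24 lower, against 30.5% and 20.9% of all genes. By quantiles the counts were 13 and 23, against 27.1% and 23.1%, and per nuclear protein-coding TPM 12 and 24, against 22.7% and 12.1%. FPKM gave 24 and 9, against 71.3% and 7.06%, and aligned bases gave 22 and 8, against 67.0% and 7.54%. The call turned with the scale for 12 of the 37, which were called higher under at least 1 scaling and lower under another: mt-Rnr1, mt-Nd4l, mt-Nd5 and the tRNA genes mt-Tl1, mt-Tw, mt-Ta, mt-Tn, mt-Tc, mt-Ty, mt-Tk, mt-Te and mt-Tt. By class, 13 of 13 protein genes were higher on TPM, and on non-ribosomal TPM 11 were higher and 2 lower. Of the 22 tRNA genes 11 were higher and 4 lower on TPM, and 3 higher and 13 lower on non-ribosomal TPM. The genes called higher under each of these 7 scalings numbered 12: mt-Nd1, mt-Nd3, mt-Nd4, mt-Nd6, mt-Cytb, mt-Co1, mt-Co2, mt-Co3, mt-Atp6, mt-Atp8, mt-Ts1 and mt-Tp. Those called lower under each numbered 5: mt-Rnr2, mt-Tf, mt-Td, mt-Tr and mt-Tl2.

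The complex IV genes encode the catalytic core of cytochrome c oxidase, and all 3 were among the members that differed most. The lowest, median and highest non-ribosomal TPM of mt-Co1 (chrM:5328-6872), the subunit that holds the oxygen-reducing site, was 12576, 15418 and 23237 in clone 2, 494, 624 and 726 in clone 1 and 905, 1067 and 1191 in wild type. That of mt-Co2 (chrM:7013-7696), which receives electrons from cytochrome c, was 3978, 5291 and 7885 in clone 2, 127, 185 and 262 in clone 1 and 213, 257 and 328 in wild type. That of mt-Co3 (chrM:8607-9390), the third core subunit, was 4359, 5772 and 8675 in clone 2, 76.8, 135 and 209.8 in clone 1 and 132, 182 and 251 in wild type. All 8 clone 2 libraries lay above all 16 of the other lines for these 3 genes, as they did for 13 of the 37 members and 19.8% of all genes on this scale. The log2 change in clone 2 against wild type on non-ribosomal TPM was 3.98 ± 0.09 for mt-Co1 (SE, limma adjusted p = 1.31e-15), 4.42 ± 0.09 for mt-Co2 (SE, adjusted p = 8.91e-16) and 5.08 ± 0.11 for mt-Co3 (SE, adjusted p = 1.74e-15). On TPM the 3 changes were 5.42, 5.86 and 6.51.

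The ATP synthase genes moved with them. mt-Atp6 (chrM:7927-8607) encodes the subunit a of the proton channel, and its non-ribosomal TPM was 9389, 12336 and 16285 in clone 2, 163, 258 and 289.7 in clone 1 and 341, 412 and 533 in wild type (lowest, median and highest). mt-Atp8, a small subunit of the membrane part whose gene overlaps it, was at 4931, 6090.4 and 8675 in clone 2, 259, 405 and 689 in clone 1 and 252, 466 and 582 in wild type. Neither gene's clone 2 range met that of another line. The log2 changes against wild type were 4.87 ± 0.09 (SE, limma adjusted p = 3.95e-16) and 3.85 ± 0.14 (SE, adjusted p = 5.46e-13) on non-ribosomal TPM, and 6.31 and 5.29 on TPM.

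mt-Cytb (chrM:14145-15288) encodes cytochrome b, the catalytic subunit of complex III and its sole mitochondrially encoded part. Its lowest, median and highest non-ribosomal TPM was 9042, 12417 and 16977 in clone 2, 1303, 1446 and 1629 in clone 1 and 2236, 2562 and 3206 in wild type. Clone 2 lay above wild type and wild type above clone 1 with no overlap between the 3 lines. The log2 change in clone 2 against wild type was 2.24 ± 0.07 on non-ribosomal TPM (SE, limma adjusted p = 3.59e-14) and 3.69 on TPM.

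The 7 complex I genes encode membrane subunits of NADH dehydrogenase, and they did not move as 1 block. mt-Nd1 (chrM:2751-3707), which lies directly after the rRNA genes and a leucine tRNA, had a lowest, median and highest non-ribosomal TPM of 13582, 17474 and 24700.0 in clone 2, 1108, 1375 and 1693 in clone 1 and 1727, 2129 and 2403 in wild type. mt-Nd5 (chrM:11742-13565), the largest subunit, was at 1857, 2233 and 3377 in clone 2, 2153, 2345 and 2752 in clone 1 and 3288, 3695 and 4641 in wild type. mt-Nd4l (chrM:9877-10173) was at 914, 1095 and 1643 in clone 2, 701, 778 and 983 in clone 1 and 1256, 1435 and 1709 in wild type. mt-Nd1 of clone 2 thus stood far above both lines, whereas the clone 2 values of mt-Nd5 and mt-Nd4l overlapped those of wild type. The log2 change of mt-Nd1 in clone 2 against wild type was 3.13 ± 0.08 on non-ribosomal TPM (SE, limma adjusted p = 6.34e-15). mt-Nd5 and mt-Nd4l were lower by this scale, with -0.69 ± 0.08 (SE, adjusted p = 1.17e-06) and -0.31 ± 0.09 (SE, adjusted p = 0.00567), but higher on TPM, with 0.76 and 1.13.

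The other 4 complex I genes lay between these. Median non-ribosomal TPM of mt-Nd2 was 1184 in clone 2, 481 in clone 1 and 559 in wild type, and that of mt-Nd3 was 663 in clone 2, 90.8 in clone 1 and 118 in wild type. For mt-Nd4, whose transcript also carries mt-Nd4l, the medians were 3252 in clone 2, 506 in clone 1 and 847 in wild type, and for mt-Nd6, the 1 protein gene of the minus strand, 1488 in clone 2, 443 in clone 1 and 533 in wild type. All 4 were higher in clone 2 than in wild type, with ranges that did not overlap (13 of 37 members and 22.7% of all genes), and with log2 changes of 1.18, 2.73, 2.00 and 1.68 on non-ribosomal TPM (limma adjusted p at most 1.30e-08). mt-Nd2 was not called higher under each of the 7 scalings. mt-Nd6 lies opposite the end of mt-Nd5, with 14 shared bases, and mt-Nd5 was the most abundant protein gene in wild type and clone 1 and the ninth in clone 2 by median.

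The order of the protein genes by level was thus unlike between clone 2 and the other lines. Across the 13 protein genes the mean log2 TPM of clone 1 and wild type had a Pearson r of 0.988, while clone 2 and wild type had 0.280 and clone 2 and clone 1 0.241. These are descriptions across genes that share libraries and transcripts. As a share of the summed TPM of the 13 genes, complex I genes held a lowest, median and highest 31.1, 32.8 and 33.1% in clone 2, 62.9, 67.6 and 68.1% in clone 1 and 64.2, 65 and 66.9% in wild type. Complex IV genes held 30.5, 32 and 34.8% in clone 2, 9.49, 10.3 and 10.9% in clone 1 and 9.73, 10.2 and 11.7% in wild type, and ATP synthase genes held 18.8, 21.1 and 22.8% in clone 2, 5.38, 7.25 and 10.1% in clone 1 and 4.57, 6.12 and 7.45% in wild type. mt-Cytb, for complex III, held 13.2, 14.2 and 15.6% in clone 2, 13.1, 16.1 and 17.6% in clone 1 and 17, 18.4 and 20% in wild type, with ranges that overlapped between clone 2 and clone 1.

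mt-Rnr2 was lower in clone 2 than in wild type, unlike most protein genes, while the direction of mt-Rnr1 depended on the scale. mt-Rnr2 (chrM:1094-2675), the RNA of the large ribosomal subunit, had a lowest, median and highest non-ribosomal TPM of 7363, 10356 and 18302 in clone 2, 22312, 28242 and 35146 in clone 1 and 49342, 57539.8 and 65675 in wild type. mt-Rnr1 (chrM:70-1024), the RNA of the small subunit, was at 401, 539 and 948 in clone 2, 185, 264 and 285 in clone 1 and 312, 378 and 570.4 in wild type. mt-Rnr2 of clone 2 lay below both other lines with no overlap, as did 2 of the 37 members and 1.99% of all genes, and mt-Rnr1 of clone 2 overlapped wild type. The log2 change in clone 2 against wild type was -2.28 ± 0.09 for mt-Rnr2 (SE, limma adjusted p = 1.18e-12) and 0.54 ± 0.11 for mt-Rnr1 (SE, adjusted p = 2.95e-04) on non-ribosomal TPM, and -0.83 and 1.99 on TPM; the log2 change of mt-Rnr1 was negative instead, at -0.53, -0.24 and -0.34, under median-of-ratios, quantile and nuclear protein-coding scaling, with adjusted p = 0.00107, 0.154 and 0.0297, so that the quantile value did not pass. The ratio of mt-Rnr2 to mt-Rnr1, both per length, was 17, 19.3 and 23.8 in clone 2, 86.6, 104 and 189.8 in clone 1 and 115, 136 and 174 in wild type (lowest, median and highest). The percent of mitochondrial TPM from mt-Rnr2 alone was 8.01, 11.2 and 12.1% in clone 2, 59.4, 68.3 and 78.8% in clone 1 and 70.7, 75 and 79.1% in wild type. These rRNAs carry at most short A tails in mammals, and the labels give the RNA as polyadenylated, so their level here need not be their level in the cell.

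The tRNA genes are shorter than the 100 nt reads, so reads over them can also cover their neighbours. mt-Ts1, opposite the end of mt-Co1, stood apart with a lowest, median and highest non-ribosomal TPM of 4366, 5687 and 8265 in clone 2, 124, 194 and 290.3 in clone 1 and 128, 195 and 271 in wild type. Its log2 change in clone 2 against wild type was 4.83 ± 0.10 (SE, limma adjusted p = 7.25e-16), beside 3.98 for mt-Co1 and 4.42 for mt-Co2. Its percent of summed tRNA TPM was 61.6, 69.9 and 74.8% in clone 2, 4.44, 6.24 and 8.66% in clone 1 and 4.12, 5.15 and 5.61% in wild type. mt-Tp, at the far end of the genome, was at 213, 339 and 631 in clone 2, 45.1, 103 and 155 in clone 1 and 59.7, 89.7 and 191 in wild type and changed by 1.79 ± 0.16 (SE, adjusted p = 2.74e-08). The glutamate tRNA mt-Te, next to mt-Cytb, was the third called higher on this scale, though called lower under others, by 0.42 ± 0.12 (SE, adjusted p = 0.00587), with ranges that overlapped.

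Of the 13 tRNA genes lower in clone 2 than in wild type on non-ribosomal TPM, the phenylalanine tRNA mt-Tf, the first gene of the annotation, had the lowest log2 change, -2.96. Its lowest, median and highest non-ribosomal TPM was 2.51, 5.91 and 27.8 in clone 2, 18, 77.1 and 132 in clone 1 and 33.9, 62.6 and 116 in wild type. The aspartate tRNA mt-Td, the arginine tRNA mt-Tr, the histidine tRNA mt-Th and the leucine tRNA mt-Tl2 had log2 changes of -2.32, -2.15, -2.09 and -2.03. The smallest of the 13 was -0.49 for mt-Tw, the tryptophan tRNA, which on TPM was called higher instead, by 0.94 ± 0.22 (SE, limma adjusted p = 8.53e-04). The leucine tRNA mt-Tl1 turned in the same way, with -1.06 on non-ribosomal TPM and 0.38 on TPM (adjusted p = 0.0245). By median of ratios, by quantiles and per nuclear protein-coding TPM 20 of the 22 tRNA genes were lower and 2 higher. The isoleucine, glutamine and methionine tRNAs mt-Ti, mt-Tq and mt-Tm, which follow each other after mt-Nd1, had changes of -1.41, -1.72 and -1.91 next to the 3.13 of mt-Nd1. On TPM those 3 changes were 0.03, -0.28 and -0.47 and were not called. The ratio of the median protein gene to the median tRNA gene, on TPM, was 29.3, 50.8 and 88.9 in clone 2, 3.36, 4.15 and 5.33 in clone 1 and 3.44, 3.55 and 4.51 in wild type (lowest, median and highest over libraries).

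**Figure D2:**
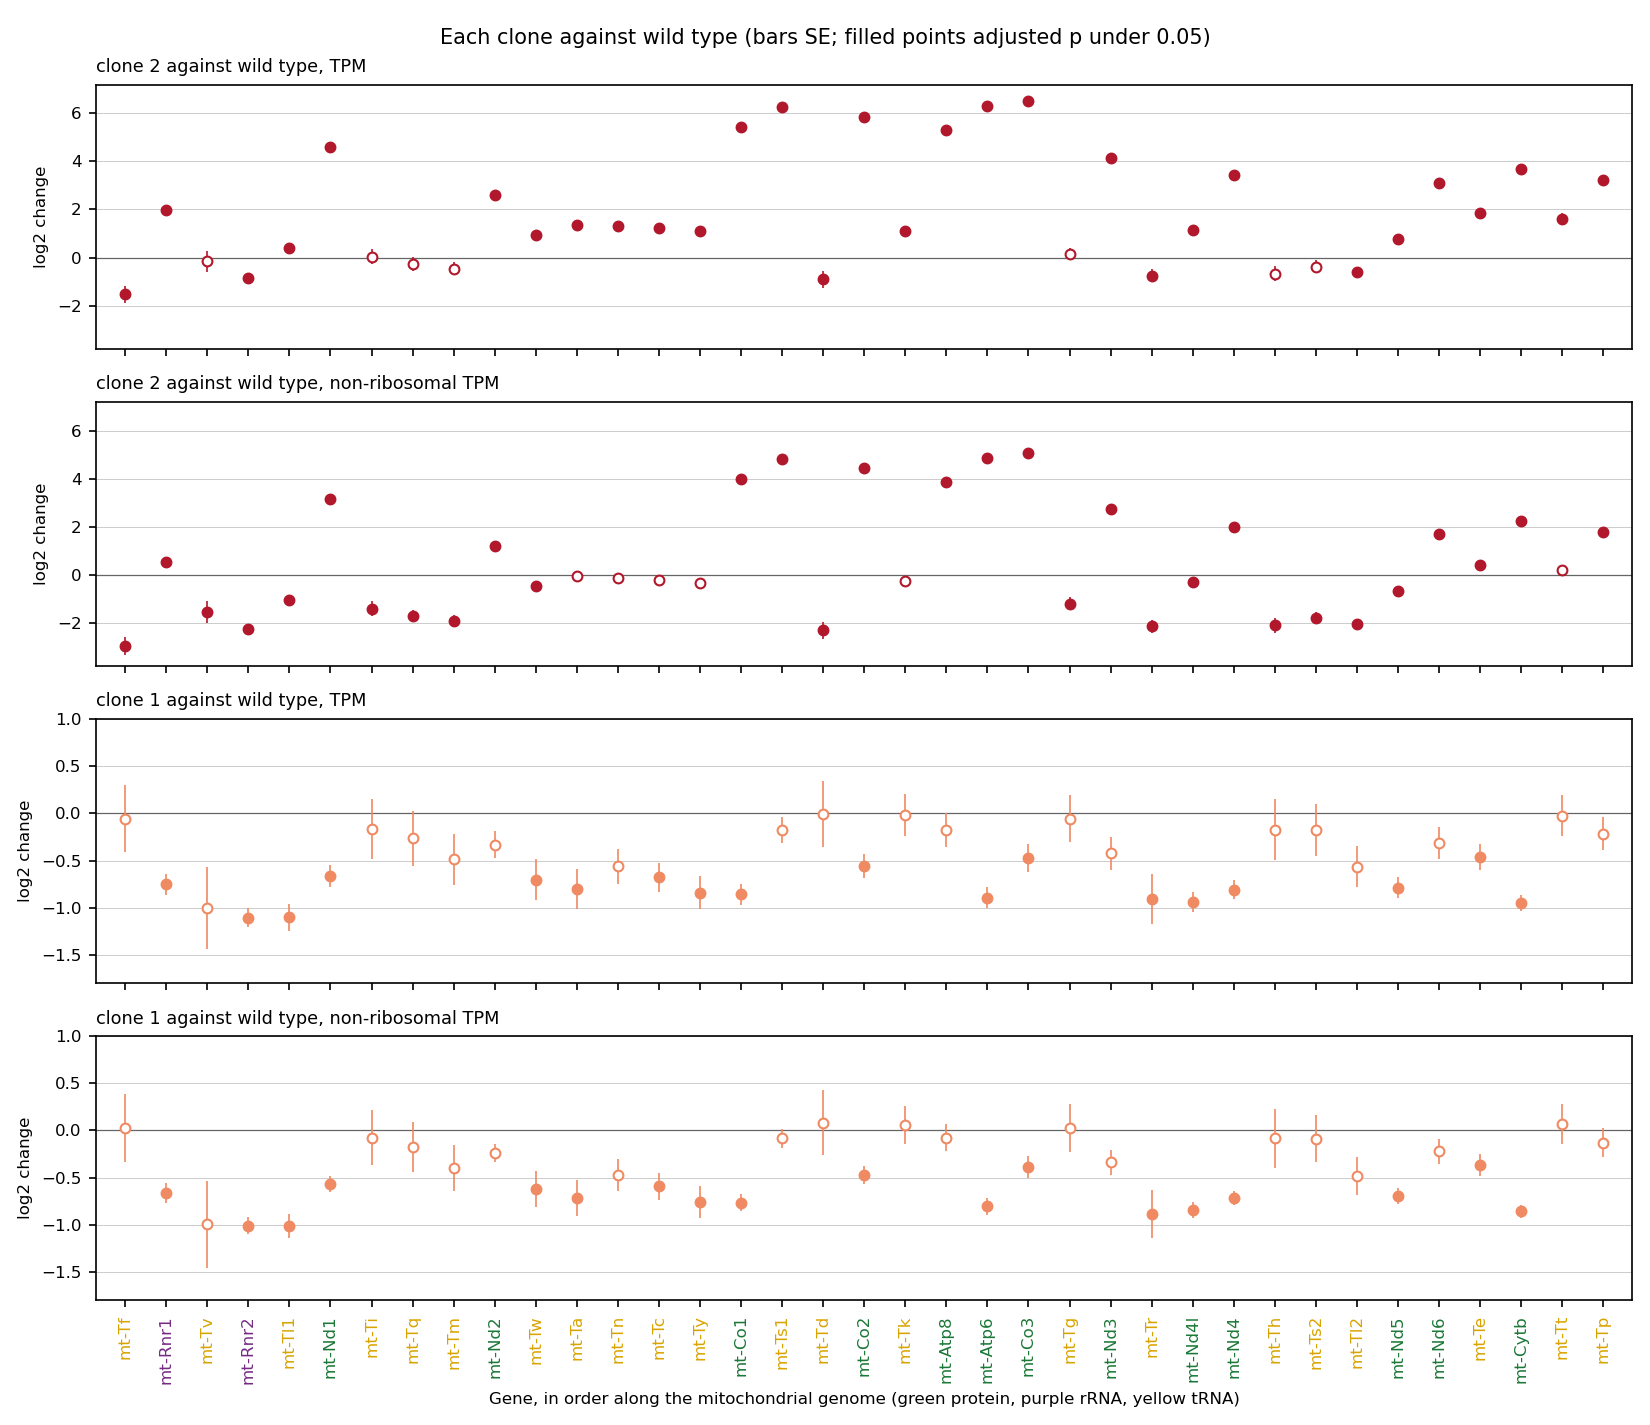
Log2 change in TPM and in non-ribosomal TPM for each of the 37 genes in the order of the genome, clone 2 against wild type and clone 1 against wild type, with the SE as error bar. On non-ribosomal TPM, most protein genes of clone 2 lie above 0 and most tRNA genes below it, while clone 1 stays between -1.01 and 0.08.

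In clone 1 the members stood in an order close to that of wild type, and on TPM most of them at a lower level, with a Pearson r of 0.988 between the mean log2 TPM of the 37 genes in the 2 lines, given as a description. On TPM 18 of 37 genes were lower and 0 higher than in wild type by limma at an adjusted p under 0.05. Of all genes 13.5% were lower and 1.31% higher. An unadjusted p under 0.05, in either direction, was found for 23 of the 37 and for 5066 of 19983 genes. The 18 were 9 protein genes, both rRNA genes and 7 tRNA genes. The median log2 change of the 37 was -0.56, against -0.12 for all genes. On non-ribosomal TPM 18 were again lower and 0 higher, against 10.2% and 2.11% of all genes. Leaving out 1 library at a time gave 14 to 21 on TPM. Scaling moved the count further, and 9 were lower by median of ratios, against 8.11% of all genes, and 5 per nuclear protein-coding TPM, against 3.63%. By quantiles 2 were lower and 1, mt-Ts1, higher, against 6.46% and 4.84%. FPKM gave 15 lower, against 13.3%, and aligned bases 9, against 15.2%. The median log2 change of the 37 was -0.47 on non-ribosomal TPM, -0.45 on FPKM, -0.18 by median of ratios, -0.15 on aligned bases, -0.02 per nuclear protein-coding TPM and 0.10 by quantiles, so its sign turned under the last.

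mt-Cytb, mt-Nd4l, mt-Rnr2 and mt-Co1 were the 4 genes whose TPM in all 8 clone 1 libraries lay below all 8 of wild type, against 3.58% of all genes. On non-ribosomal TPM 9 did, against 2.64%. The lowest, median and highest TPM of mt-Cytb was 367, 465 and 597 in clone 1, against 615, 907 and 1144 in wild type, a log2 change of -0.95 ± 0.09 (SE, limma adjusted p = 1.36e-06). For mt-Rnr2 the values were 7421, 8782 and 10226 in clone 1, against 13096, 18948 and 24532 in wild type, a log2 change of -1.11 ± 0.10 (SE, adjusted p = 1.27e-06). mt-Nd4l changed by -0.94 ± 0.11 and mt-Co1 by -0.86 ± 0.11 (SE). The 4 protein genes that were not called had log2 changes of -0.33 for mt-Nd2, -0.42 for mt-Nd3, -0.32 for mt-Nd6 and -0.17 for mt-Atp8. The leucine tRNA mt-Tl1, between mt-Rnr2 and mt-Nd1, changed by -1.10 ± 0.14 (SE, adjusted p = 5.20e-05), and it and mt-Nd4l were the 2 genes lower under each of the 7 scalings, close to the background of 5.28% of all genes. Among the groups with MyoD, 8 genes were called between these lines on TPM, against 8.48% of all genes, and without MyoD 24, against 7.06%.

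With MyoD, both rRNA genes, 3 protein genes and 2 tRNA genes rose on TPM in clone 2 and the tRNA gene mt-Tv fell, mt-Tp rose in clone 1, and no member was called in wild type, with 4 libraries with MyoD and 4 without it in each line. In clone 2, 7 of 37 genes rose and 1 fell on TPM by limma at an adjusted p under 0.05, against 4.12% of all genes higher and 15.4% lower. The median log2 change was 0.45 for the members and -0.23 for all genes. On non-ribosomal TPM 14 rose and 1 fell, against 1.44% and 6.03%. Both rRNA genes, 9 protein genes and 3 tRNA genes made up the 14. Median of ratios called 21 higher, against 4.46% of all genes, quantiles 3, against 2.5%, and nuclear protein-coding scaling 14, against 1.23%. FPKM called 23, against 17%, and aligned bases 20, against 8.77%. mt-Rnr1, mt-Nd4 and mt-Tp were called higher under all of the 7 scalings, as were 1.22% of all genes. Other values of clone 2 moved with MyoD. The summed 9 fibroblast markers were 5383 to 7928 TPM with MyoD, against 13268 to 16217 without it, and the ribosomal repeat held 5.62 to 7.90% of TPM with MyoD, against 2.68 to 4.91% without it. Neither pair of ranges overlapped, and their part in the result was not tested, except that non-ribosomal TPM leaves the repeat out.

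mt-Rnr1 was at 786, 840.3, 732 and 554 TPM in clone 2 with MyoD, against 411, 368, 441 and 408 TPM without it. In this and in later lists of 4 values, the first 2 libraries had no plasmid and the last 2 had it. mt-Rnr2 was at 15112, 16219.7, 13979.6 and 9421 TPM with MyoD, against 8453, 8760.5, 9708 and 7022 TPM without it. The ranges of mt-Rnr1 did not overlap and those of mt-Rnr2 did. On TPM 4 of the 37 members lay wholly above and 1 wholly below, against 5.65% and 16.2% of all genes. The log2 changes were 0.82 ± 0.16 (SE, limma adjusted p = 0.00170) and 0.67 ± 0.14 (SE, adjusted p = 0.00308). The 3 protein genes that rose on TPM were mt-Co1 by 0.47 ± 0.16 (SE, adjusted p = 0.0441), mt-Nd4 by 0.45 ± 0.14 (SE, adjusted p = 0.0342) and mt-Cytb by 0.40 ± 0.12 (SE, adjusted p = 0.0273); for mt-Cytb the quantile-scaled change was -0.053.

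The levels of those protein genes show how wide the 4 libraries were. mt-Co1 was at 20769, 20097, 17737 and 13476 TPM with MyoD, against 11597, 11889, 15016 and 12927 TPM without it. mt-Cytb was at 13474, 15046, 13427 and 10810.1 TPM with MyoD, against 8339, 8399, 12017 and 11414 TPM without it. In both genes the second library with MyoD and plasmid sat among those without MyoD. Of the remaining protein genes mt-Co3 and mt-Nd2 had ranges that did not overlap and log2 changes of 0.58 and 0.54 on TPM, with limma adjusted p = 0.0591 and 0.0699, and on non-ribosomal TPM they passed.

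Among the tRNA genes mt-Tp rose to 511, 559, 483 and 333 TPM with MyoD, against 224, 196, 212 and 299 TPM without it, a log2 change of 1.01 ± 0.24 (SE, limma adjusted p = 0.00790) with no overlap. The cysteine tRNA mt-Tc rose by 0.66 ± 0.22 (SE, adjusted p = 0.0426). The valine tRNA mt-Tv, between the rRNA genes, fell by 2.37 on the log2 scale (adjusted p = 0.0134), with 9.80, 12.4, 10.6 and 2.33 TPM with MyoD, against 123, 11.9, 25.7 and 90.6 TPM without it. Its range without MyoD was wide and met the range with MyoD. The direction of mt-Tv was opposite to that of the rRNA genes on either side of it.

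The response of clone 2 was also read within each plasmid state. Between groups that had the plasmid, 1 gene was called on TPM by limma, against 8.66% of all genes, and 0 on non-ribosomal TPM, against 2.66%. Between groups that lacked it, 9 were called on TPM, against 9.64% of all genes, and 14 on non-ribosomal TPM, against 3.37%. The log2 change of mt-Rnr1 was 0.59 with the plasmid (limma adjusted p = 0.126), against 1.06 without it (adjusted p = 0.00633). For mt-Co1 it was 0.15 with the plasmid (adjusted p = 0.793), against 0.80 without it (adjusted p = 0.0317). The difference between these changes was not tested. Leaving out 1 library at a time, the 8 calls on TPM became 3 to 12, with 3 when replicate 2 of the plasmid alone was left out and 4 or 5 when either library with MyoD alone, the first with both agents or the first untreated one was left out.

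In clone 1 with MyoD, mt-Tp rose and 0 genes fell on TPM, against 0.145% of all genes higher and 0.04% lower. mt-Tp was at 70.8, 48.5, 33.9 and 41 TPM with MyoD, against 11.3, 13.2, 26.1 and 29 TPM without it, with no overlap (9 of 37 members and 1.54% of all genes) and a log2 change of 1.30 ± 0.24 (SE, limma adjusted p = 0.0366). The change was 0.43 with the plasmid (adjusted p = 0.933), against 2.17 without it (adjusted p = 0.0117). On non-ribosomal TPM 6 genes rose, namely mt-Nd2, mt-Nd3, mt-Ts1, mt-Tk (lysine), mt-Tt (threonine) and mt-Tp, against 0.451% of all genes. Before adjustment 30 of the 37 had p under 0.05 on TPM, against 1562 of 19983 genes, and 25 on non-ribosomal TPM, with no such count over all genes given. The median log2 change of the 22 tRNA genes was 1.11 and that of the 13 protein genes 0.44, against 0.01 for all genes. The ribosomal repeat moved with these values: in clone 1 its lowest, median and highest share was 36.8, 61.1 and 64.6% of TPM with MyoD, against 63, 65.5 and 70% without it, and its part in the result was not tested. The count of calls on TPM rested on single libraries: it was 15 without replicate 1 of clone 1 with MyoD and plasmid, 4 without replicate 2 of clone 1 with MyoD alone, 2 without either untreated wild type library, and 0 without any 1 of the other 6 clone 1 libraries or of the 2 untreated clone 2 libraries.

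In wild type with MyoD 0 genes were called on either scale by limma, and 0 of the 37 had an unadjusted p under 0.05. On TPM 683 of 19983 genes had an unadjusted p under 0.05. Of all genes 0.15% were called higher and 0.01% lower on TPM, and 0.273% and 0.029% on non-ribosomal TPM. The log2 changes ran from -0.29 to 0.32 on TPM. mt-Co1 was at 386, 425, 274 and 308 TPM with MyoD, against 407, 435, 402 and 234 TPM without it. mt-Rnr1 was at 133, 173, 98.4 and 106 TPM with MyoD, against 206, 179, 133 and 97.4 TPM without it. Both pairs of ranges overlapped. These same wild type libraries had Myod1 at 3301 TPM or more and summed muscle markers of 70.4 to 93.6 TPM.

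**Figure D3:**
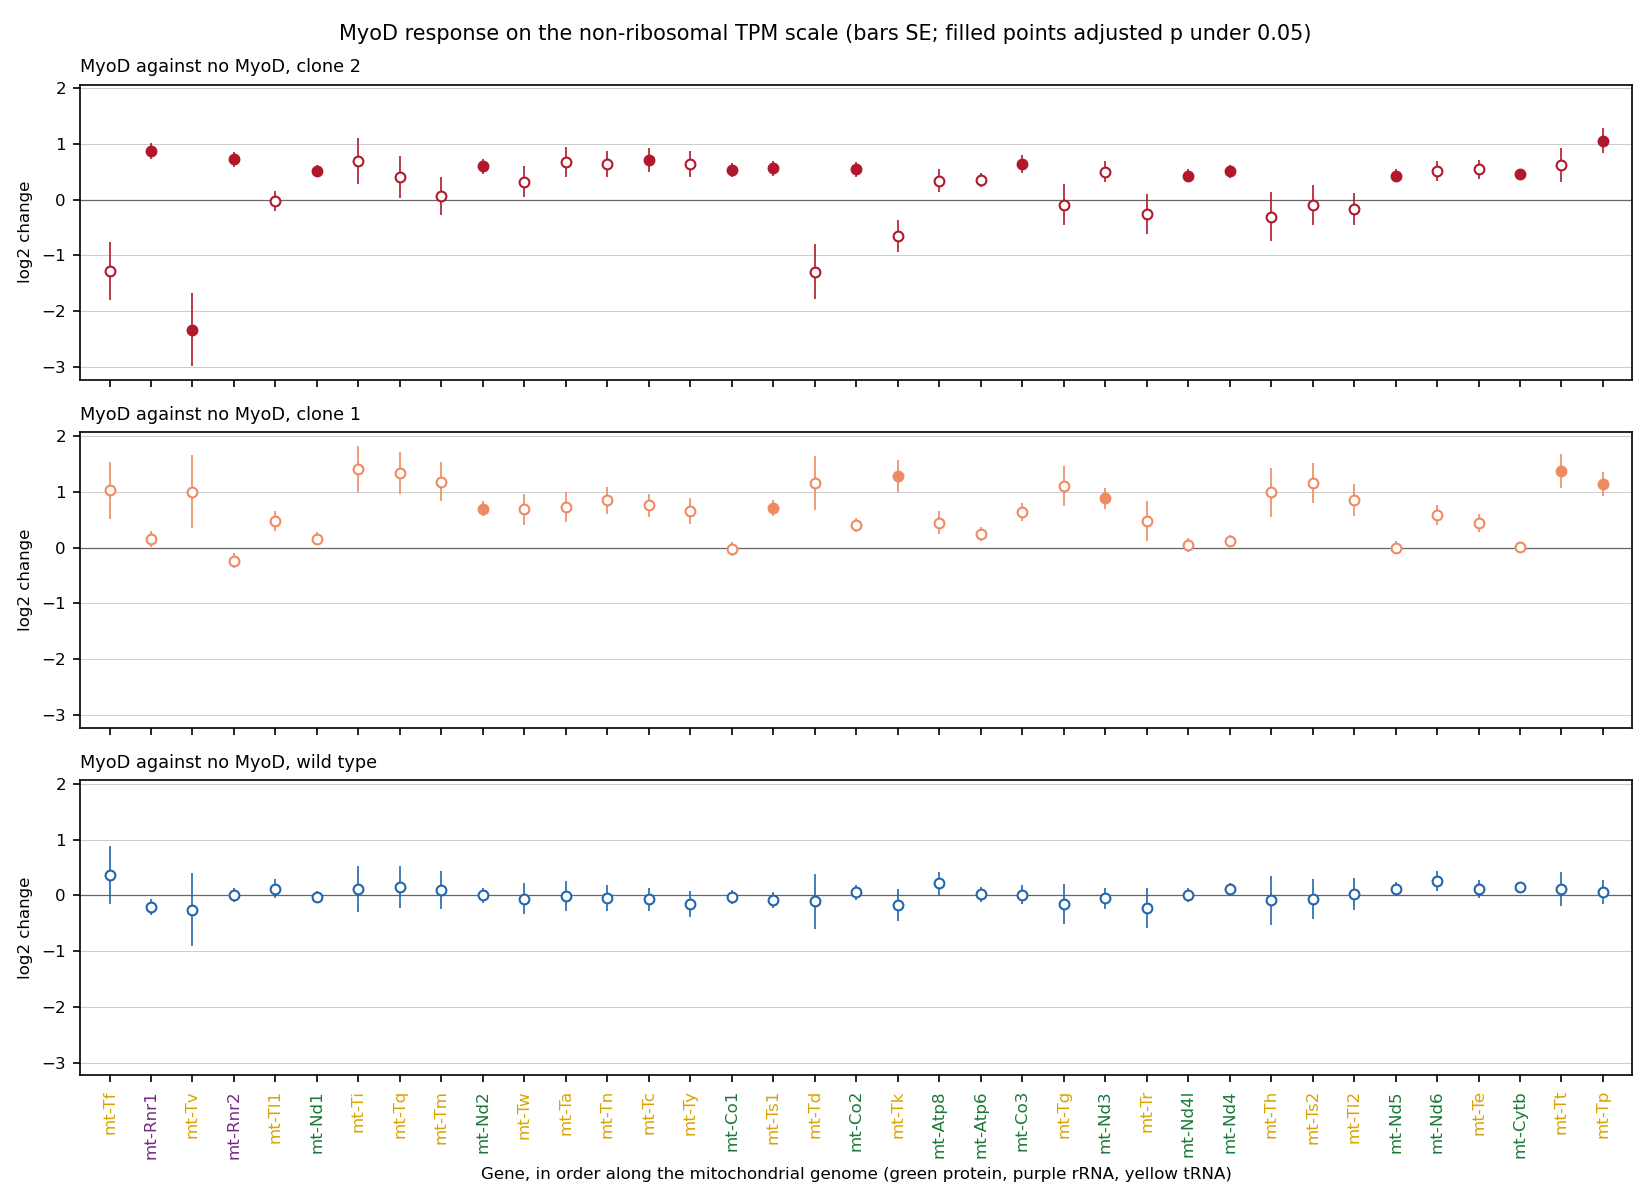
Log2 change in non-ribosomal TPM with MyoD against without MyoD for each of the 37 genes in clone 2, clone 1 and wild type, with the SE as error bar. Wild type stays between -0.26 and 0.37, and mt-Tv of clone 2 is the lowest value, at -2.33.

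The difference between the MyoD responses was tested directly. In clone 2 relative to wild type, both rRNA genes had a larger change with MyoD on TPM, 0.82 in clone 2 against -0.25 in wild type for mt-Rnr1 and 0.67 against -0.03 for mt-Rnr2. The log2 difference was 1.07 ± 0.22 for mt-Rnr1 (SE, limma adjusted p = 0.00764) and 0.70 ± 0.20 for mt-Rnr2 (SE, adjusted p = 0.0406). These were 2 of 37 genes, against 0.976% of all genes higher and 6.33% lower, and mt-Rnr1 was called under each of the 7 scalings, as were 0.225% of all genes, and with any 1 of the 24 libraries left out. mt-Rnr2 was no longer called in 20 of those 24 fits, with an adjusted p of up to 0.0929. Non-ribosomal TPM also gave 2, against 0.368% of all genes higher and 2.19% lower, while FPKM gave 20 higher, against 9.23%, aligned bases 14, against 3.19%, and median of ratios 13, against 1.15%. In clone 1 relative to wild type, 0 of 37 were called by limma on either scale. Of all genes 0.0% were called higher and 0.01% lower on TPM, and 0.0372% and 0.0538% on non-ribosomal TPM. At an unadjusted p under 0.05 there were 20 of the 37 on TPM, against 1019 of 19983 genes. On non-ribosomal TPM there were 15, with no such count over all genes given. For the plasmid against no plasmid over the 3 lines, 0 of 37 were called by limma on either scale. The shares of all genes called were 0.02% higher and 0.01% lower on TPM, and 0.00414% and 0.00414% on non-ribosomal TPM. Before adjustment 5 of the 37 had p under 0.05 on TPM, against 1157 of 19983 genes. On non-ribosomal TPM 3 did, with no such count over all genes given. The plasmid's log2 changes on TPM ran from -0.31 to 0.06.

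The nuclear copies carried values of their own. The lowest, median and highest percent of TPM from the 7 pseudogenes together was 2.78, 3.51 and 4.87% in clone 2, 0.0692, 0.0941 and 0.153% in clone 1 and 0.110, 0.158 and 0.197% in wild type. Gm10925, the copy of mt-Atp6 with 678 of 678 identical bases, was at 8631, 11618 and 14671 TPM in clone 2, 51.3, 92 and 115 in clone 1 and 93.4, 156 and 199.8 in wild type. mt-Atp6 itself was at 8658, 11637 and 14433 TPM in clone 2, 45.4, 83.6 and 101 in clone 1 and 94.1, 146 and 190.4 in wild type, close to its copy in each line. The part of Gm10925 in their sum was 49.8, 49.9 and 50.4% in clone 2, 51.7, 53.1 and 54.1% in clone 1 and 49.8, 51 and 52.5% in wild type. Gm28438, with the T3C difference, took 55.2, 55.6 and 56.4% of its sum with mt-Nd3 in clone 2, 59.5, 63.2 and 65.2% in clone 1 and 61.5, 64.5 and 65.7% in wild type. The values of mt-Co1, mt-Co2, mt-Co3, mt-Atp6, mt-Nd3, mt-Nd4l and mt-Nd4 are therefore uncertain by the part assigned to the copy, and from these files the reads of a copy and of its gene cannot be told apart. The tRNA genes mt-Ts1, mt-Td, mt-Tk, mt-Tg and mt-Tr lie between these genes. Annotated copies alone were compared, so these tRNA genes may carry the same limit, which was not tested. mt-Nd1, mt-Cytb, mt-Nd5, mt-Nd2, mt-Nd6 and both rRNA genes have no copy among the 7. mt-Atp8 has no annotated copy either, but it lies between mt-Co2 and mt-Atp6, which do. It shares 43 bases with mt-Atp6, so its value may carry the same limit.

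Nuclear genes that run mitochondrial gene expression were counted beside the members, from a list of 42 symbols of which 41 were tested. In clone 2 against wild type 37 of 41 were higher and 2 lower on TPM by limma, against 67.7% and 4.5% of all genes, with a median log2 change of 2.38, against 1.26 for all genes. On non-ribosomal TPM 31 were higher and 5 lower, against 40.4% and 10.2%. The 4 largest were Hsd17b10, a subunit of the RNase P that cuts tRNA ends (5.93 ± 0.15), Rexo2, an exonuclease of short RNAs (5.51 ± 0.17), Slirp, a partner of the mRNA-stabilising Lrpprc (4.65 ± 0.23), and Mterf2, of the termination factor family (4.26 ± 0.21; log2 change ± SE). The 2 lower were Tfb1m, which methylates mt-Rnr1 (-2.02 ± 0.42), and the coactivator Pprc1 (-0.84 ± 0.15). In clone 1 against wild type 6 were lower, led by the transcription factor Nrf1 (-1.01 ± 0.25), Pprc1 (-0.83 ± 0.15) and Gabpb1 (-0.77 ± 0.21), against 13.5% of all genes. On non-ribosomal TPM 6 were lower and 1 higher, against 10.2% and 2.11%. The ranges of these 3 genes overlapped, and 2 were near the floor. Median TPM was 0.214 in clone 1 and 1.74 in wild type for Nrf1, and 0.269 and 1.28 for Gabpb1.

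With MyoD in clone 2, 2 of the 41 rose and 3 fell on TPM by limma, against 4.12% and 15.4% of all genes. On non-ribosomal TPM 0 rose and 2 fell, Polrmt and Supv3l1, against 1.44% and 6.03% of all genes. Polrmt, the mitochondrial RNA polymerase, had a lowest, median and highest TPM of 7.47, 9.38 and 11.8 with MyoD, against 23.8, 27.2 and 38.9 without it, a log2 change of -1.51 ± 0.34 (SE, limma adjusted p = 0.00473). Tfam, which packs the genome and helps to start its transcription, had 6.60, 10.4 and 14.3 TPM with MyoD, against 22.3, 23.9 and 28.3 TPM without it, a log2 change of -1.21 ± 0.23 (SE, adjusted p = 0.00174). The RNA helicase Supv3l1 changed by -1.11 ± 0.29 (SE, adjusted p = 0.0140). The 3 falls on TPM lay below the share of all genes that fell, 15.4%. Both rRNA genes rose in the same line and comparison, and a link between them and Polrmt or Tfam was not tested. The 2 that rose by limma were the coactivator Ppargc1b (1.29 ± 0.40, adjusted p = 0.0332) and Hsd17b10 (0.67 ± 0.21, adjusted p = 0.0354). Ppargc1b was near the floor, at 0, 3.92 and 4.46 TPM with MyoD, against 0, 0.305 and 1.27 TPM without it, and its ranges overlapped. On non-ribosomal TPM the adjusted p was 0.0591 for Tfam, 0.146 for Ppargc1b and 0.154 for Hsd17b10. The Polrmt response was the 1 of the 41 that was lower in clone 2 than in wild type on TPM, against 6.33% of all genes, by a log2 difference of -1.88 ± 0.48 (SE, adjusted p = 0.0244), and on non-ribosomal TPM it did not pass, at -1.92 (adjusted p = 0.0615). With MyoD, 0 of the 41 were called by limma in clone 1 and in wild type. On TPM 3 and 4 had an unadjusted p under 0.05, against 1562 and 683 of 19983 genes.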

How the data were processed

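RNA was sequenced from 24 libraries in 12 groups. Per the labels' protocols, full-length cDNA was tagmented and read as pairs of 100 nt with a kit that does not mark strand. StringTie 1.3.3, HISAT2 2.1.0, SAMtools 1.3, Trimmomatic 0.36, bcl2fastq 2.19 and the mm10 build are named in the submitters' processing notes. Per the file headers, StringTie 2.1.2 assembled transcripts with GENCODE vM21 as guide. The authors deposited 3 values for each transcript, its coverage, FPKM and TPM. Read counts were not used, so how many reads lie behind a value is not known.

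TPM was summed per gene. Transcripts without a reference gene went to the gene sharing at least 50% of their exonic length on the same strand. Non-ribosomal TPM leaves out chr17:39842994-39848788, and its remaining denominator still holds unnamed transcripts of uncertain type. The test took genes that reached 1 TPM in 2 or more libraries, 19983 on TPM and 24173 on non-ribosomal TPM, with limma 3.58.1 in R 4.3.3 on log2(TPM + 1), with 12 group means over the 24 libraries, 12 residual degrees of freedom and Benjamini-Hochberg adjustment over all genes. Log2 changes understate those of low genes. A gene was called at an adjusted p under 0.05. The fit was tested on simulated data. The 8 comparisons were each clone against wild type, MyoD in each line, 2 differences of MyoD responses and the plasmid.

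All protein and rRNA genes are named, tRNA genes where a result turns on them, and up to 4 called nuclear genes per comparison with the largest change, with others named after their values were seen where a count was 5 or fewer. The members, lists and tests were chosen with earlier results of these data known. Gm29217, listed with the copies, was left out because its annotation places it elsewhere.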

Additional observations from a re-analysis of the deposited data

Results flagged for a closer look

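Clone 1 with MyoD alone, replicate 1, had a mitochondrial share of 2.2% of TPM, apart from the other 3 clone 1 libraries with MyoD. The same library had 36.8% of TPM at the ribosomal repeat, and the part of that repeat in the value was not tested. Wild type with MyoD and plasmid, replicate 2, had a mitochondrial share of 6.64% of non-ribosomal TPM, below the other 3 wild type libraries with MyoD. Of 36 such groups examined for a library far from the others, chance alone would give about 1 in 20.

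The response of mt-Rnr1 to MyoD differed between clone 2 and wild type by a log2 difference of 1.07, and that of mt-Rnr2 by 0.7, both by the test of the difference itself. With 1 library left out, mt-Rnr1 was still called in all 24 fits, while mt-Rnr2 lost the call in 20 of them.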

How the results depend on the processing

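Over the 7 scalings the sign turned for 14 of the 37 members in clone 2 against wild type, with 12 of them called in both directions, for 22 in clone 1 against wild type and for 10 with MyoD in clone 2, with 0 called in both directions in either. For clone 2 against wild type, mt-Nd4l changed by -0.31 on non-ribosomal TPM, -1.39 by median of ratios, -1.09 by quantiles and -1.20 per nuclear protein-coding TPM, mt-Nd5 by -0.69, -1.76, -1.77 and -1.58 under the same 4, and mt-Rnr1 by -0.53, -0.24 and -0.34 under the last 3. For clone 1 against wild type, quantile scaling gave 0.029 for mt-Nd1, 0.084 for mt-Co2 and 0.45 for mt-Ts1. For MyoD in clone 2 it gave -0.053 for mt-Cytb. The cause was not tested. Over the alternatives other than leaving out a library, 720 values of single genes kept direction and call, 58 lost the call, 34 gained it and 15 turned.

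The counts that follow show how the calls moved with the setting. Where no share of all genes is printed above for the same setting, a count is no result about the members alone. For MyoD in clone 1, the 1 called gene became 6 on non-ribosomal TPM, 4 by median of ratios, by quantiles and per nuclear protein-coding TPM, 3 with a pseudocount of 0.1, and 0 with a pseudocount of 10, on aligned bases, from reference-named transcripts alone, with a replicate block, and with the plasmid on either scale. For MyoD in clone 2, the 8 called became 24 on FPKM, 21 by median of ratios, 20 on aligned bases, 15 on non-ribosomal TPM, 14 per nuclear protein-coding TPM and with a pseudocount of 10, 4 without the filter, 3 by quantiles and from that line's libraries alone, 2 at a log2 change of at least 1, and 1 with the plasmid, or 0 there on non-ribosomal TPM. For clone 1 against wild type, the 18 became 9 on aligned bases and by median of ratios, 8 in groups with MyoD (9 on non-ribosomal TPM), 5 per nuclear protein-coding TPM, 3 by quantiles and 2 at a log2 change of at least 1. For the difference between clone 2 and wild type in the MyoD response, the 2 became 20 on FPKM, 14 on aligned bases, 13 by median of ratios, 5 per nuclear protein-coding TPM, and 1 by quantiles, without the filter and at a log2 change of at least 1.

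Leaving out 1 library at a time gave 0 to 15 called genes for MyoD in clone 1 (1 to 9 on non-ribosomal TPM), 3 to 12 for MyoD in clone 2 (5 to 16), 14 to 21 for clone 1 against wild type (13 to 18), 27 to 32 for clone 2 against wild type (30 to 31) and 1 to 3 for the clone 2 response difference on both scales, and 0 for the other 3 comparisons. For MyoD in clone 2 on non-ribosomal TPM the lowest counts were 5 without replicate 2 of the plasmid alone, 7 without replicate 1 of MyoD with plasmid and 9 without replicate 2 of MyoD alone. Counts with a library left out, here and above, have no share of all genes beside them. They describe how steady the calls were and no more. The replicate numbers did not pair the libraries, since the correlations of their deviations over 66 pairs of groups lay between -0.0515 and 0.0343. With a replicate block, 7 genes were called for MyoD in clone 2, 0 in clone 1, 18 for clone 1 against wild type, 30 for clone 2 against wild type, 2 for the clone 2 response difference and 0 in the other comparisons.

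The mean mitochondrial share of TPM was 10.5% in clone 2, 1.58% in clone 1 and 2.90% in wild type, and 10.0 to 10.9, 1.49 to 1.62 and 2.76 to 3.01 with 1 library left out. In clone 2 it was 5.95% on aligned bases, 14.2% with the nuclear copies added and 14.1% of mitochondrial plus nuclear protein-coding TPM. In clone 1 it was 4.12% of non-ribosomal TPM, 4.44% without Lars2 as well and 13.3% of mitochondrial plus nuclear protein-coding TPM, and in wild type 7.56%, 7.88% and 17%. Because no read counts were used, counting error could not be set beside these values.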
